A study of Homo sapiens with 4 samples.

Results

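The 42 genes described here encode enzymes that take glucose to pyruvate and lactate, the pyruvate dehydrogenase complex with the kinases and phosphatases that regulate it, 3 enzymes of the pentose phosphate pathway, 1 of gluconeogenesis and 6 proteins of glycogen metabolism. They were chosen by gene symbol from the 23287 symbols of the RNA-seq data, and their symbols covered 89 of the 41138 transcripts. T47D, a human breast cancer cell line, was studied as a single line, and R5020 is a synthetic progestin that activates the progesterone receptor (PR), a hormone-dependent transcription factor. For RNA-seq, cells kept in hormone-depleted medium received 10 nM R5020 or the ethanol vehicle (EtOH) for 3 h. PR binding sites came from chromatin immunoprecipitation followed by sequencing (ChIP-seq) after 1 h of 10 nM R5020, with input DNA as the authors' control. Per the authors' methods, cells for ChIP were kept in hormone-depleted medium for longer than those for RNA. Each condition was represented by 1 library, so no difference below has a replicate check, none carries a p-value, and each compares these libraries only.

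In glycolysis, hexokinase traps glucose as glucose-6-phosphate, and phosphofructokinase commits it to breakdown. The bifunctional PFKFB enzymes make and remove fructose-2,6-bisphosphate, the strongest activator of phosphofructokinase, and of these PFKFB3 has the highest ratio of kinase to phosphatase activity. Pyruvate is then either reduced to lactate by lactate dehydrogenase or oxidised to acetyl-CoA by the pyruvate dehydrogenase complex, which PDK kinases switch off and PDP phosphatases switch on. Dividing breast epithelium and breast cancer cells are known for high use of glucose.

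Levels were FPKM, fragments scaled to transcript length and library size, summed over the transcripts of a gene. The change was the log2 ratio of R5020 to EtOH after 1 was added to each FPKM, and a gene was called higher or lower past 1.5-fold, a log2 ratio of 0.58 in either direction. Of the 42 genes, 37 reached an FPKM of 1 in EtOH, R5020 or both and were retained, among 11018 retained genes in all. The deposited coverage corresponded to 35151493 reads in EtOH and 36203604 in R5020. These are sums over the deposited transcripts and not the sequencing depth, for which the authors report more uniquely placed reads in EtOH than in R5020. All 8 markers of luminal, hormone receptor positive breast epithelium reached an FPKM of 1 in EtOH or R5020, whereas lists of basal, fibroblast, leukocyte and endothelial markers summed to at most 5.48. Among the luminal markers, *KRT8* and *KRT18* were listed at 0 in EtOH with the status of a failed estimate, and at 285 and 174 FPKM in R5020. No transcript of the 42 genes had that status. The shares, medians and ranks over all retained genes or transcripts given below do include entries with failed estimates, such as *KRT8* and *KRT18*.

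Past the 1.5-fold threshold in R5020 were 3 of the 37 genes, *PFKFB3*, *PDK4* and *LDHA*, against 7.67% of all retained genes. None was at least 1.5-fold lower, against 4.14% of all retained genes. Their products make fructose-2,6-bisphosphate, inhibit pyruvate dehydrogenase and reduce pyruvate to lactate, respectively, and *PDK4* was retained only through R5020, where it was high. The other 34 genes had log2 ratios between −0.37 (*ENO2*) and 0.56 (*PYGB*). Across the 37 genes the median log2 ratio was −0.03, with 15 above 0 and 22 below, and the median over all retained genes was 0.01. The median absolute log2 ratio was 0.14 in these genes and 0.18 in all retained genes. Summed over the 42 genes, FPKM was 814 in EtOH and 897 in R5020, a ratio of 1.1. Most of that difference came from *PFKFB3* (6.57 in EtOH and 53.1 in R5020) and *LDHA* (50.6 and 77.3).

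**Figure D1:**
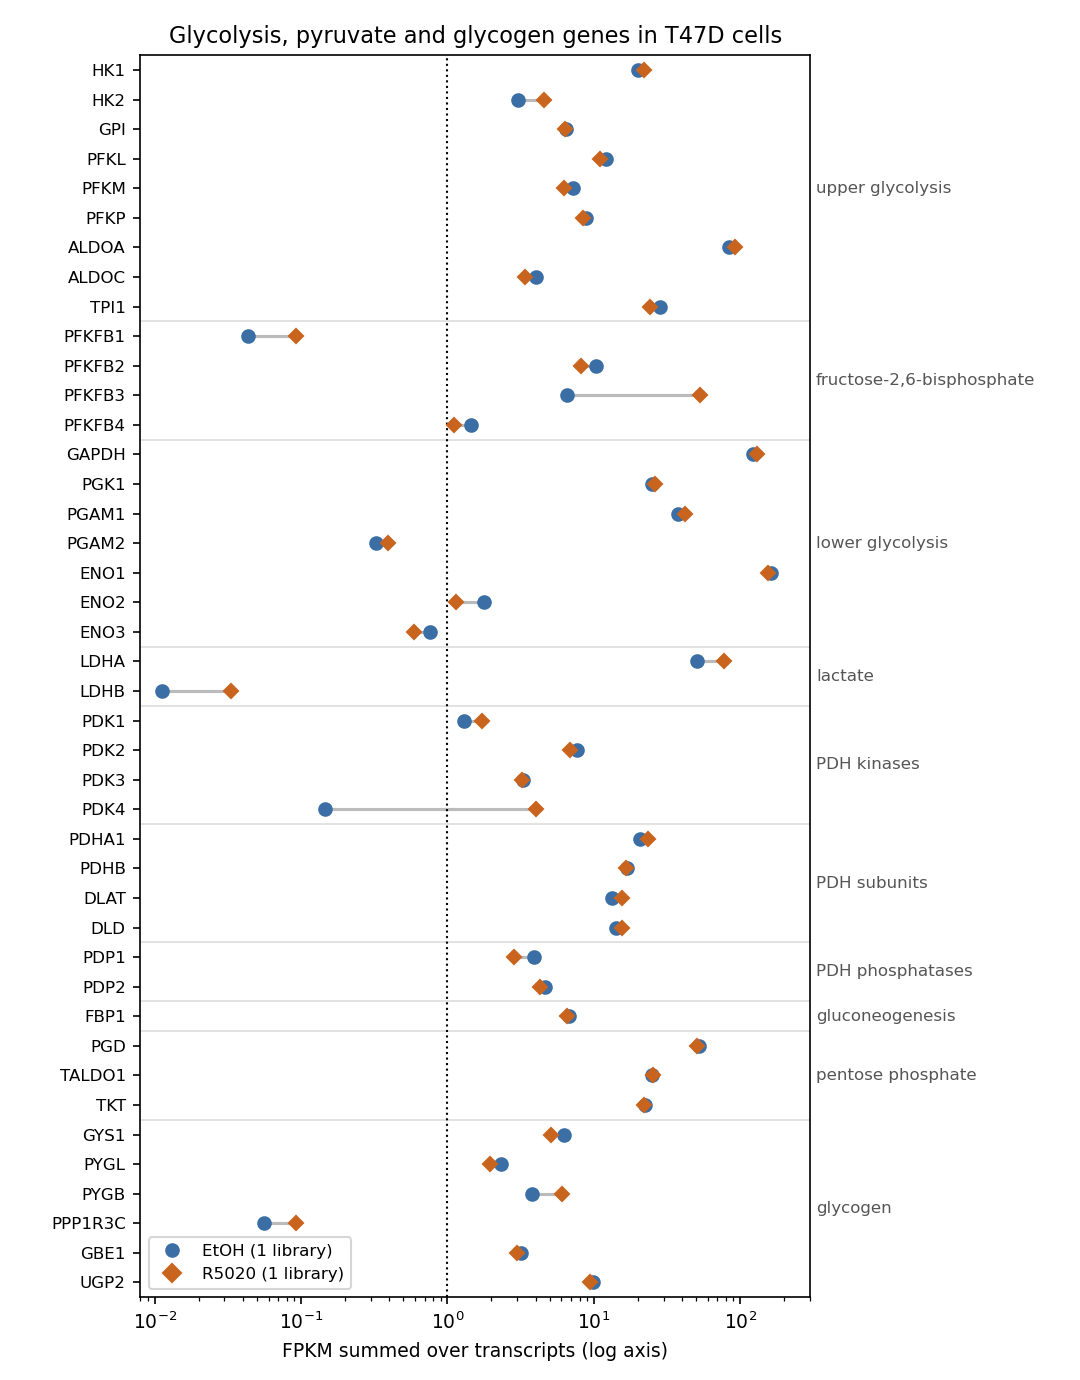
FPKM of the 42 genes on a log axis, ordered by step, with circles for the EtOH library and diamonds for the R5020 library. The dotted line marks the FPKM of 1 that a gene had to reach in either library to be retained. For most genes both symbols lie almost on top of each other, while those of *PFKFB3* (6.57 and 53.1) and *PDK4* (0.147 and 4.03) are far apart.

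Among the 42 genes, *PFKFB3* had the highest log2 ratio of FPKM with the pseudocount of 1. This order depended on the processing. *PDK4* was above *PFKFB3* without a pseudocount (4.78 against 3.02) and with levels from coverage (2.99 against 2.85). *PFKFB3* was at 6.57 FPKM in EtOH and 53.1 FPKM in R5020, an 8.09-fold difference with a log2 ratio of 2.84, which ranked 38 of the 11018 retained genes. The coverage behind these levels corresponded to 2660 reads in EtOH and 21024 reads in R5020. The other genes of the family, which make and remove the same regulator, showed nothing of this size. *PFKFB2*, the isoform best known from heart, was at 10.3 FPKM in EtOH and 8.20 in R5020 (log2 ratio −0.30). *PFKFB4*, an isoform known from testis and tumours, was at 1.44 FPKM in EtOH and 1.11 in R5020 (log2 ratio −0.21). *PFKFB1*, the liver and muscle isoform, was at 0.0436 FPKM in EtOH and 0.0924 in R5020 and was not retained. The summed PFKFB level was thus 18.4 FPKM in EtOH and 62.6 FPKM in R5020, a 3.41-fold difference. *PFKFB2* was the most abundant PFKFB transcript in EtOH, at 56.1% of the sum, and *PFKFB3* was at 35.8%. In R5020 the order was the opposite, with *PFKFB3* at 85% and *PFKFB2* at 13.1%.

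Both expressed *PFKFB3* transcripts were higher in R5020, and they begin at different promoters on the plus strand of chromosome 10 (hg19). NM_001145443 runs from 6186843 to 6277507 and was at 5.73 FPKM in EtOH (interval of the authors' estimate 5.30 to 6.18) and 34.5 FPKM in R5020 (33.5 to 36.1), a 6.03-fold difference with a log2 ratio of 2.40. NM_004566 begins inside it, at 6244840, and was at 0.843 FPKM in EtOH (0.651 to 1.04) and 18.6 FPKM in R5020 (17.6 to 19.7), a 22.1-fold difference with a log2 ratio of 3.41. The intervals of the conditions did not overlap for either transcript, although these intervals describe the estimate within a library and not the spread between cultures. The transcript from the internal start made up 12.8% of *PFKFB3* in EtOH and 35.0% in R5020. These shares rest on the authors' estimates for overlapping forms, and whether the split differed in the cells was not tested. The upstream transcript remained the more abundant form in both libraries.

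The 250 bases before the RefSeq start of each form in GRCh38.p14 are shown because both forms were higher. On hg19 these RefSeq starts lie 41 and 55 bases inside the deposited transcripts, so the last 41 and 55 bases of the stretches fall within them. The stretch of NM_001145443 is chr10:6144671-6144920 and that of NM_004566 is chr10:6202682-6202931, both on the plus strand, with GC contents of 79.2% and 74.4%. Neither holds the hormone response element searched here, GNACA and TGTNC with 3 bases of any kind between them, which reads the same on both strands. Neither holds its stronger arm, TGTTCT, on either strand. Over the 300-base promoters of all 35116 starts in the table, of which the last 50 bases follow the start, 0.390% held the element and 14.8% held the arm.
NM_001145443: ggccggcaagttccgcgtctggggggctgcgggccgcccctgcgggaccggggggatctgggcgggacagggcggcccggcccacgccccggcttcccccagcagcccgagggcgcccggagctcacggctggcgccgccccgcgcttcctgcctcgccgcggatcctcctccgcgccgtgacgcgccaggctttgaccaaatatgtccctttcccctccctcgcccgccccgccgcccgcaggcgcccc
NM_004566: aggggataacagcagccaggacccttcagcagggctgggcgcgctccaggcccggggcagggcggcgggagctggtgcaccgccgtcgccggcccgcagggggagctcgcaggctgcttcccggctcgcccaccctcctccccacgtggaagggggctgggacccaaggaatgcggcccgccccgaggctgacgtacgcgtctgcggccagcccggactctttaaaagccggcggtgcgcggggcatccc

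**Figure D2:**
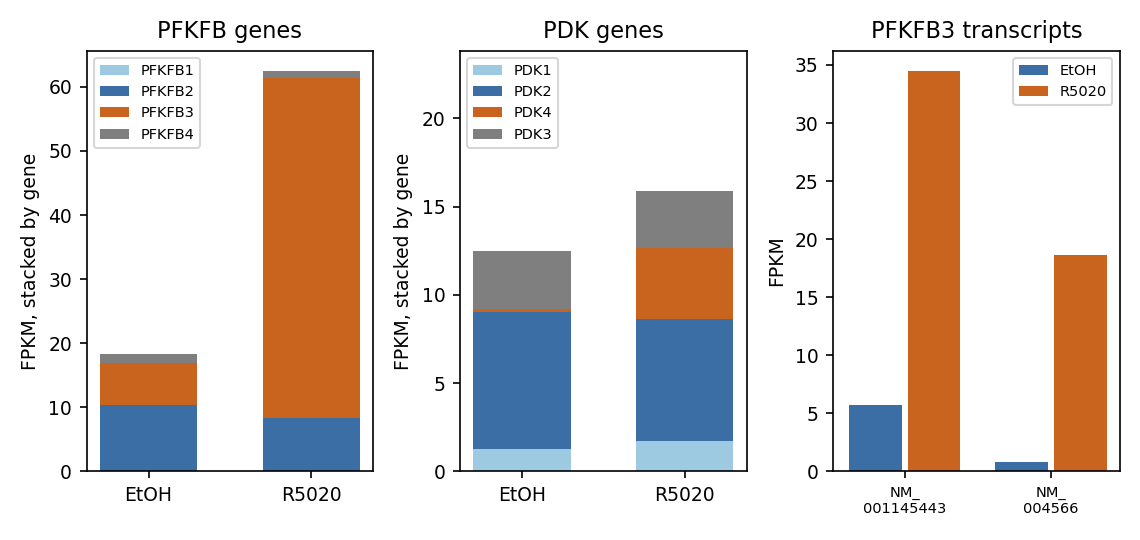
FPKM in EtOH and R5020 of the PFKFB genes (left) and the PDK genes (middle), stacked by gene, and of the *PFKFB3* transcripts (right), with 1 library per bar. *PFKFB3* makes up 35.8% of the PFKFB bar in EtOH and 85% in R5020, *PDK4* makes up 1.18% and 25.4% of the PDK bars, and both *PFKFB3* transcripts are higher in R5020.

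*PDK4* encodes a pyruvate dehydrogenase kinase known to be induced by fasting and by glucocorticoids, and it was close to absent in EtOH. It was at 0.147 FPKM in EtOH (interval 0.0825 to 0.215) and 4.03 FPKM in R5020 (3.87 to 4.77), with coverage that corresponded to 53.7 and 1372 reads. The log2 ratio was 2.13 with the pseudocount of 1 and 4.78 without it, the latter a 27.4-fold difference, since the pseudocount compresses changes of genes this low in 1 condition. The other kinases, which phosphorylate the same subunit, showed no such difference. *PDK1*, known as a target of hypoxia, was at 1.29 FPKM in EtOH and 1.72 in R5020 (log2 ratio 0.25). *PDK2*, the most abundant kinase in both libraries, was at 7.74 FPKM in EtOH and 6.89 in R5020 (−0.15). *PDK3* was at 3.29 FPKM in EtOH and 3.25 in R5020 (−0.01). The summed PDK level was 12.5 FPKM in EtOH and 15.9 in R5020, a ratio of 1.27, and *PDK4* accounted for 1.18% of it in EtOH and 25.4% in R5020. *PDK2* made up 62.1% of the sum in EtOH and 43.4% in R5020, so *PDK4* went from the least abundant kinase to the next after *PDK2*.

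*PDK4* lies on the minus strand of chromosome 7 (hg19, 95212809 to 95225925). The 250 bases before its RefSeq start, chr7:95596517-95596766 on the minus strand of GRCh38.p14 in RefSeq, are shown because they hold the arm TGTTCT, in capitals, which 14.8% of all promoters held. They do not hold the element. This RefSeq start lies 97 bases inside the deposited transcript on hg19, so the last 97 bases of the stretch fall within it.
*PDK4*: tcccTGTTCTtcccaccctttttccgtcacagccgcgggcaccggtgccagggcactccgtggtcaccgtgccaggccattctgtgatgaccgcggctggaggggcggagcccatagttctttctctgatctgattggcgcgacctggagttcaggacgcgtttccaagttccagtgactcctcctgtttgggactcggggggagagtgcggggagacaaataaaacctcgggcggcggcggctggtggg

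The phosphatases that reverse the action of these kinases were not called. *PDP1*, the calcium-dependent phosphatase, was at 3.91 FPKM in EtOH and 2.83 in R5020 (log2 ratio −0.36), and *PDP2* was at 4.62 and 4.29 (−0.09). The subunits of the complex itself summed to 64.9 FPKM in EtOH and 71.2 in R5020. *PDHA1*, the subunit that the kinases phosphorylate, was at 20.6 FPKM in EtOH and 23.6 in R5020 (0.19), and its partner *PDHB* was at 16.8 and 16.5 (−0.02). *DLAT*, the acetyltransferase core, was at 13.4 and 15.5 FPKM (0.20), and *DLD*, the dehydrogenase that regenerates its lipoyl groups, was at 14.2 and 15.6 (0.13). None of the 4 subunits passed 1.5-fold in either direction.

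*LDHA*, which encodes the lactate dehydrogenase subunit that predominates in muscle and tumours, was the only gene with an FPKM above 20 in both libraries past the threshold, and it passed narrowly. It was at 50.6 FPKM in EtOH and 77.3 FPKM in R5020, a 1.53-fold difference with a log2 ratio of 0.60. With levels taken from the deposited coverage in place of FPKM the log2 ratio was 0.51, below the threshold, at a median of −0.09 over all retained genes. The main coding transcript NM_005566 was at 35.2 FPKM in EtOH and 57.8 in R5020 (0.70), and the noncoding NR_028500 was at 15.5 and 19.5 (0.32). *LDHB*, which encodes the other subunit, was at 0.0112 FPKM in EtOH and 0.0333 in R5020, so that practically all lactate dehydrogenase RNA in these libraries was *LDHA*. Immediately below the threshold were *PYGB* (0.56) and *HK2* (0.46). Without the pseudocount, *PYGB* was at 0.67 and passed the threshold, *HK2* was at 0.58 and did not, and *LDHA* was at 0.61.

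**Figure D3:**
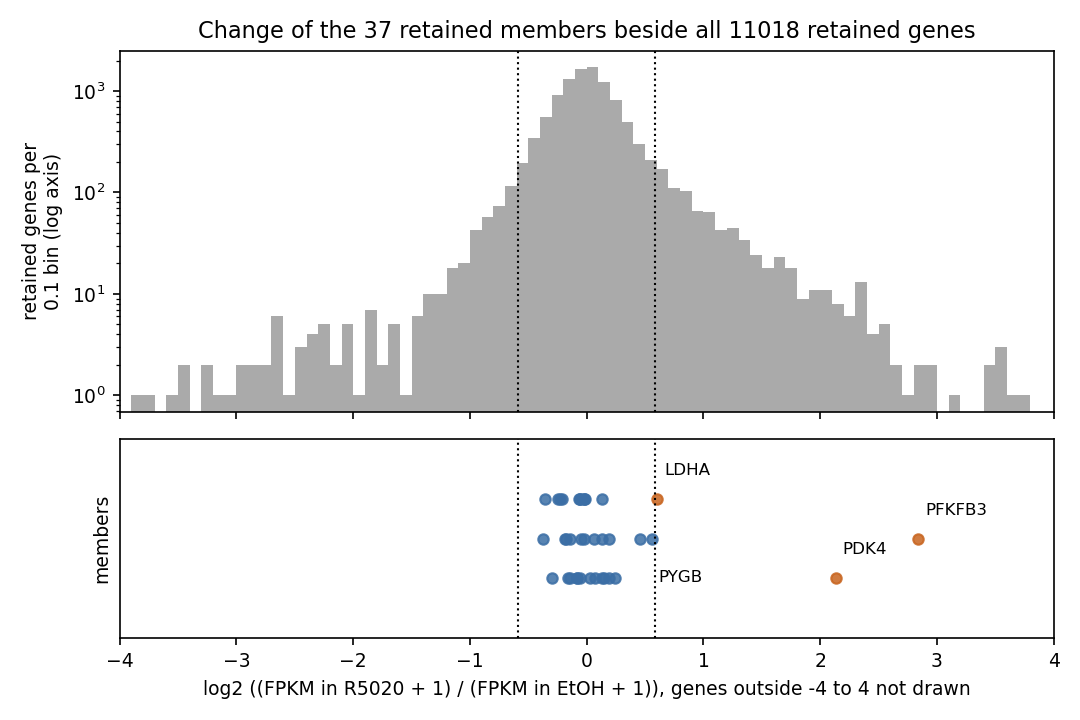
Log2 ratio of R5020 over EtOH for all 11018 retained genes (top, genes per bin of 0.1 on a log axis) and for the 37 retained genes of the pathway (bottom, 1 point per gene, height without meaning), with dotted lines at 1.5-fold. The points of *PFKFB3* (2.84), *PDK4* (2.13) and *LDHA* (0.60) are orange and lie above the line, and the other 34 lie between −0.37 and 0.56.

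None of the 9 genes of hexose entry and upper glycolysis was called. Their summed level was 174 FPKM in EtOH and 179 in R5020. *HK2*, the hexokinase known to be inducible in tumours, was at 3.04 FPKM in EtOH and 4.56 in R5020 (log2 ratio 0.46), and the constitutive *HK1* was at 20.2 and 22.2 (0.13). The *HK2* share of hexokinase RNA was 13.1% in EtOH and 17.0% in R5020. The 3 phosphofructokinase genes, whose product is the target of fructose-2,6-bisphosphate, each had a log2 ratio below 0. *PFKL* was at 12.2 FPKM in EtOH and 11.0 in R5020 (−0.14), *PFKP* at 8.79 and 8.39 (−0.06) and *PFKM* at 7.19 and 6.24 (−0.18). Their sum was 28.2 FPKM in EtOH and 25.6 in R5020, a ratio of 0.908. *GPI*, the isomerase between both kinase steps, was at 6.49 and 6.38 FPKM (−0.02). *ALDOA*, the main aldolase, was at 84.0 and 92.9 (0.14), and *ALDOC* at 4.0 and 3.41 (−0.18). *TPI1*, which interconverts the triose phosphates, was at 28.5 and 24.2 (−0.23), with the status LOWDATA in both libraries, although its coverage corresponded to 3551 and 2924 reads.

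The genes of lower glycolysis had the highest summed level of any step, and none was called. They summed to 352 FPKM in EtOH and 353 in R5020. *ENO1*, the main enolase, was at 163 FPKM in EtOH and 154 in R5020 (log2 ratio −0.08), and *GAPDH*, the glyceraldehyde-3-phosphate dehydrogenase often used as a reference gene, was at 123 and 130 (0.07). *PGAM1*, the phosphoglycerate mutase, was at 37.9 and 41.7 (0.13), and *PGK1*, the phosphoglycerate kinase, at 25.1 and 26.2 (0.06). *ENO2*, the neuronal enolase, had the lowest log2 ratio of the 37 genes, at 1.77 FPKM in EtOH and 1.14 in R5020 (−0.37). At so low a level the pseudocount mattered, and without it the ratio was −0.64, below the threshold of 1.5-fold lower. *GAPDH*, *PGK1*, *PGAM1*, *ENO1*, *TPI1* and *LDHA* have processed pseudogenes, and reads that mapped to several positions had been discarded, so their levels are uncertain relative to other genes. *ENO3* (0.759 and 0.588 FPKM) and *PGAM2* (0.326 and 0.394), the muscle forms, were not retained.

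The pentose phosphate and gluconeogenic enzymes differed little. *PGD*, the phosphogluconate dehydrogenase that makes NADPH, was at 52.7 FPKM in EtOH and 50.8 in R5020 (log2 ratio −0.05). *TALDO1*, transaldolase, was at 25 and 25.4 (0.03), and *TKT*, transketolase, at 22.5 and 22 (−0.03). *FBP1*, the fructose-bisphosphatase that opposes phosphofructokinase, was at 6.80 and 6.56 (−0.04). For comparison, the 12 genes that reached an FPKM of 20 in both libraries had a median absolute log2 ratio of 0.11, and all 1234 such genes had 0.14.

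Among the glycogen genes, *PYGB* was nearest to a call, and the other 4 retained genes had log2 ratios below 0. *PYGB*, the brain form of glycogen phosphorylase, was at 3.80 FPKM in EtOH and 6.07 in R5020, a log2 ratio of 0.56 with the pseudocount of 1 and 0.67 without it. *PYGL*, the liver form, was at 2.32 and 1.97 (−0.16), so the *PYGB* share of both was 62.1% in EtOH and 75.5% in R5020. *GYS1*, glycogen synthase, was at 6.23 and 5.10 FPKM (−0.25). *GBE1*, the branching enzyme, was at 3.17 and 2.99 (−0.06), and *UGP2*, which makes UDP-glucose, at 9.93 and 9.48 (−0.06). *PPP1R3C*, which targets protein phosphatase to glycogen, was at 0.0563 and 0.0927 FPKM and was not retained. Over the step, FPKM summed to 25.5 in EtOH and 25.7 in R5020.

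At the level of single transcripts, 43 of the 89 were retained and 39 were listed at 0 in both libraries. At least 1.5-fold higher were 4 of the 43, against 11.3% of all retained transcripts, and these were both forms of *PFKFB3*, *PDK4* and the main form of *LDHA*. At least 1.5-fold lower were 2 of the 43, against 8.34% of all retained transcripts. Both belonged to pyruvate dehydrogenase and had a longer companion from the same start. *PDHA1* NM_001173456 was at 4.53 FPKM in EtOH and listed at 0 in R5020, whereas NM_000284 was at 16.0 and 23.6. *PDHB* NM_001173468 was at 4.48 FPKM in EtOH and listed at 0 in R5020, whereas NM_000925 was at 12.3 and 16.5. The summed levels of both genes were close to each other across libraries, as given above, and whether the split between forms differed in the cells was not tested. Of the 43 retained transcripts, 13 had an FPKM outside the interval deposited with it in at least 1 library. *PYGB* was among these, and from the midpoints of its intervals its log2 ratio was 0.52, against 0.61 for *LDHA* and 2.84 for *PFKFB3*.

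PR binding sites were then set beside these levels. The ChIP-seq data held 11181 sites, with scores from the minimum of 50 to 1965.17 and a median of 74.5, where the score is −10 times the log10 of the peak caller's p-value. A site lay within 50 kb of 19 of the 42 genes and of 18 of the 37 retained genes, which is 48.6% against 52.7% of all retained genes. Of the 3 genes that were higher in R5020, only *PFKFB3* had a site within 50 kb, and so did 17 of the 34 genes not called. The nearest site was 148 kb from *PDK4* and 393 kb from *LDHA*. Among the 845 retained genes that were higher in R5020, 519 (61.4%) had a site within 50 kb.

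*PFKFB3* had 7 sites within 50 kb, and 6 of them lay inside the gene. In the same windows 4.17% of all retained genes had 7 or more sites, and 0.545% (60 genes) had 6 or more inside. *PFKFB3* is a long gene, spanning 90.7 kb against a median of 26.8 kb over the retained genes, which a count of sites inside does not take into account. The scores were moderate, from 52.57 to 85.96. The first site (score 61.87) had its midpoint at −4.51 kb from the upstream start, and the next (55.33) was at 3.47 kb. The remaining 5 lay beyond the internal start, at 1.65 kb (79.56), 9.35 kb (74.5), 12.9 kb (85.96), 29.5 kb (74.96) and 31.1 kb (52.57). The last was in the untranslated part of the gene and the other 5 inside it were intronic.

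**Figure D4:**
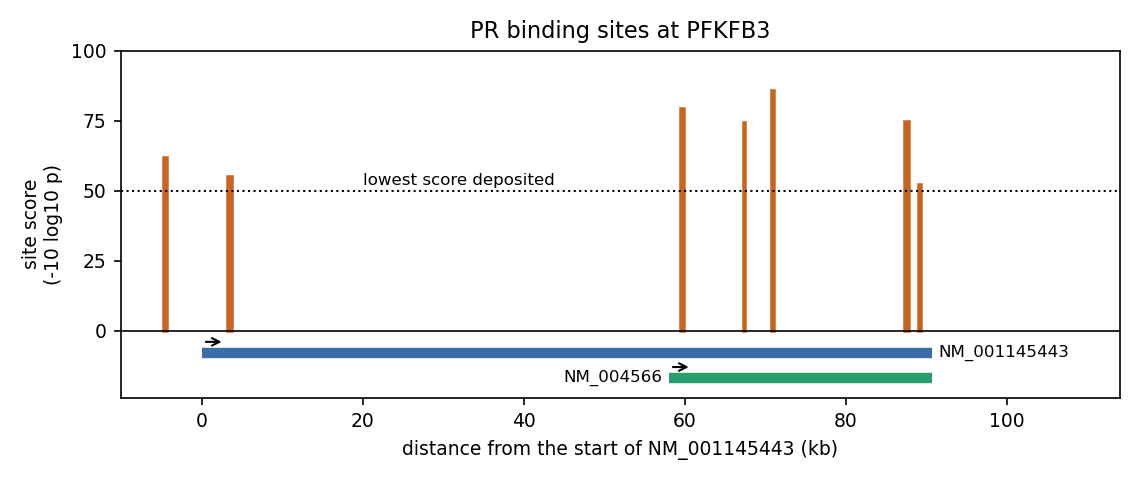
PR binding sites at *PFKFB3* by distance from the start of NM_001145443 in kb, drawn at their width with their score as height, above the extents of both transcripts, whose direction is shown by arrows. Of the 7 sites, 1 lies before the upstream start and 5 lie after the start of NM_004566, and the dotted line is the lowest score deposited, 50.

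The sequences of 3 intronic sites are shown as 300 bases around their midpoint on the plus strand of hg19, namely the one nearest to the internal start (chr10:6246344-6246643), one of the pair that hold the arm TGTTCT or its complement AGAACA in capitals (chr10:6254041-6254340), and the one with the highest score (chr10:6257552-6257851). None of the 7 windows held the complete element, a share that 7 windows bound only to at most 35.4% (Wilson 95% interval, counting error only), and 2 held the arm. Over all 11178 sites with a full window, 1.89% held the element and 17.7% held the arm.
Nearest to the internal start: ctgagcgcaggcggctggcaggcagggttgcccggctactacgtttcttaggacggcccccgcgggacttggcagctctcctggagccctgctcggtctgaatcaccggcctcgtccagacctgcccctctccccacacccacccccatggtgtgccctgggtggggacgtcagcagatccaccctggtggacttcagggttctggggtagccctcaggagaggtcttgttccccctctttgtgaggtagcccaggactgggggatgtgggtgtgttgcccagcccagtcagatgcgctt
With the arm: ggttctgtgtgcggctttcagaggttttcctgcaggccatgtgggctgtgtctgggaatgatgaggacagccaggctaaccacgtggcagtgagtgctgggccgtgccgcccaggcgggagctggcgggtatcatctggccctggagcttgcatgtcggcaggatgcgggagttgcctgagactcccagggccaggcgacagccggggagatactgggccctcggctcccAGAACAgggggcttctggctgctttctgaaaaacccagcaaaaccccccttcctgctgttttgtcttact
Highest score: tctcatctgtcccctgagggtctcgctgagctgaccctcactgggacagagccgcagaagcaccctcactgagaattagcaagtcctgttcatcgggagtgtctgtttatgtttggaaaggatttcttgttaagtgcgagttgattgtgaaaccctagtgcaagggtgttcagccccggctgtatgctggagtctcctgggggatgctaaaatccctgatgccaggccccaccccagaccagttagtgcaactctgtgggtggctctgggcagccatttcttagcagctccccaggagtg

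Among the 42 genes, sites close to genes other than *PFKFB3* were not accompanied by a called difference under the main settings. *PDK1* had a site over its own start, with its midpoint 246 bp after it and a score of 122.95, and a log2 ratio of 0.25. The midpoint of a site was at 0.710 kb from the start of *TKT* (score 67.37, log2 ratio −0.03) and at −0.496 kb from that of *ALDOC* (score 76.8, log2 ratio −0.18). These were the only 3 sites within 1 kb of a start of the 42 genes. *PYGB* had 5 sites within 50 kb with 3 of them inside the gene, *PFKL* had 3 with 1 inside, and *PDK2* had 4 with 1 inside. Of the 47 sites near the 42 genes, 13 had their midpoint in the gene concerned, 26 in another protein-coding gene and 8 in none, so most are near these genes without lying in them. The highest score among the 47, 321.94, belonged to a site 42.2 kb from *DLAT* in an intron of *DIXDC1*. A score of at least 100 was reached by 6 of the 47, against 16.3% of all sites, and 26 (55.3%) were at or above the median score of all sites.

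The complete element occurred in 2 of the 47 windows, which is 4.26% (Wilson 95% interval 1.17 to 14.2%) against 1.89% of all sites, and the arm in 10 of 47 (21.3%, interval 12 to 34.9%). Both windows were intronic, in *PFKL* (score 89.07) and in *PYGB* (score 86.33), and the *PYGB* window held the element at 2 positions. They are shown, chosen after the search, as 80 bases of the plus strand of hg19 with the element in capitals, at chr21:45726423-45726502, chr20:25258639-25258718 and chr20:25258715-25258794. *PYGB* was the gene next below the threshold (0.56) and *PFKL* was slightly lower in R5020 (−0.14).
*PFKL*: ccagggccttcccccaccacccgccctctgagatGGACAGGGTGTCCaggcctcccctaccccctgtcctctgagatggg
*PYGB*, first position: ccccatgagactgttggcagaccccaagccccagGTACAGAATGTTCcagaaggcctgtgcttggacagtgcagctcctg
*PYGB*, second position: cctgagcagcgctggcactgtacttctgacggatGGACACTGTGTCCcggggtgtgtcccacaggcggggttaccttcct

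**Figure D5:**
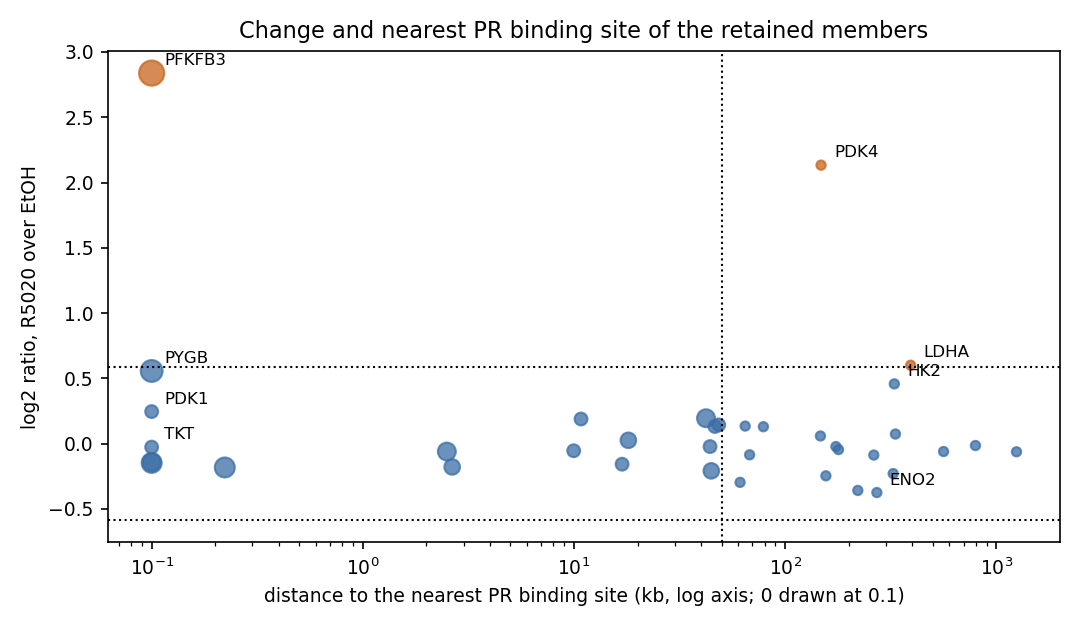
Log2 ratio of R5020 over EtOH of the 37 retained genes against the distance from the gene to its nearest PR binding site (kb, log axis, with sites inside the gene drawn at 0.1), the size of a point growing with the number of sites within 50 kb. The vertical dotted line is at 50 kb and the horizontal ones at 1.5-fold, and of the 3 orange points *PFKFB3* is at the left end while *PDK4* and *LDHA* are beyond 50 kb.

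A further 62 genes of the same pathways, including glucose and lactate transporters, were counted by the same rule. Of these, 32 were retained, 4 were at least 1.5-fold higher (7.67% over all retained genes), none was at least 1.5-fold lower (4.14% over all), and the median log2 ratio was −0.03. The other 28 lay between −0.32 and 0.38, and 12 of the 62 genes were listed at 0 in both libraries. *SLC2A1*, the basal glucose transporter GLUT1, was at 2.09 FPKM in EtOH and 4.45 in R5020 (log2 ratio 0.82). *SLC2A10*, another member of the glucose transporter family, was at 2.03 and 5.08 (1.0). *GYG1*, the glycogenin that primes glycogen, was at 11.0 and 21.6 (0.91). *G6PC*, the glucose-6-phosphatase catalytic subunit known from liver, was at 0.0349 and 1.99 FPKM (1.53), with coverage that corresponded to 5.42 and 529 reads, and was retained only through R5020, where it was high. *SLC2A10* had 3 PR binding sites within 50 kb and *GYG1* had 1, whereas the nearest was 76.2 kb from *G6PC* and 353 kb from *SLC2A1*. *PKM*, the pyruvate kinase that precedes lactate dehydrogenase and is named PKM2 in the files, was at 139 and 121 FPKM (−0.21).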

How the data were processed

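RNA-seq of T47D cells (1 R5020 and 1 EtOH library) and PR ChIP-seq (1 library) were analysed, and the input DNA library entered only as the authors' control. The authors trimmed the RNA-seq reads where needed, used TopHat to place them on hg19, dropped those that mapped to several positions, and deposited, per RefSeq transcript, the FPKM estimated by Cufflinks with an interval, a status and a coverage signal. Their methods name an Ensembl annotation, whereas the transcripts carry RefSeq identifiers. ChIP-seq reads were aligned with Bowtie 1.1.2 per the labels, and the deposited score of each MACS site is −10 × log10 of its p-value. Since FPKM is not a count and each condition had 1 library, no test was run. Because such reads were dropped, genes with near-identical copies may be understated.

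FPKM was summed per symbol and compared as log2 ratios with a pseudocount of 1, a minimum of 1 in at least 1 condition and a 1.5-fold threshold. Reads were expressed as coverage × length / 50 nt. Sites were tied to genes by their nearest edge within 50 kb of any transcript and annotated with GENCODE release 44 on GRCh37 (hg19). Motifs were searched in 300-base windows, and in RefSeq promoters of GRCh38.p14. Motif shares of sites near the 42 genes carry Wilson 95% intervals, for counting error only, and the other shares carry none. The 42 genes, the 62 further genes and the marker lists were chosen with earlier results of these data known. All 42 genes are named, with values for each, and genes of the further list only past 1.5-fold, apart from *PKM*, which was named after its values were seen. The closing section gives the alternatives whose values moved, and does not list all of those that stayed. The code for the calls was first run on simulated data with large changes and little noise. That run checks the code, and does not bear on calls near the threshold or at low FPKM. The software was Python 3.11.15, pysam 0.24.0, pandas 2.3.3, scipy 1.17.1, matplotlib 3.10.9 and numpy 2.4.6.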

Additional observations from a re-analysis of the deposited data

How the results depend on the processing

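No paired analysis was possible because each condition had 1 library, and for the same reason no replicate could be left out. Of 43 alternative values, 29 stayed within the range set for them and 14 moved. A count stayed if it was within 1.5-fold of the main count, so it could stay while a gene was lost or gained. Only the *PFKFB3* values could be labelled as reversed, and 0 were. That label did not cover the order of *PFKFB3* and *PDK4*. The log2 ratio of *PDK4* was the higher with a pseudocount of 0.1, without one, and with levels from coverage. With a pseudocount of 0.1, 1 gene (*ENO2*) was at least 1.5-fold lower, the *PFKFB3* log2 ratio was 3.0 and *PYGB* joined the higher genes. Without a filter on FPKM the median log2 ratio of the genes was −0.02. With the median of all genes set to 0 it was −0.04 and *PFKFB3* was at 2.83. When only the highest transcript of a gene was used, *PFKFB3* was at 2.40 and made up 78.6% of the PFKFB sum in R5020. Further alternatives were added after seeing the data. With levels from coverage scaled to the total of each library, which moved the median of all retained genes to −0.09, 1 gene (*ENO2*) was lower, the median was −0.13, *PFKFB3* was at 2.85 and *LDHA* (0.51) was no longer higher. Without a pseudocount, among genes that reached an FPKM of 1 in both conditions, 1 gene (*ENO2*) was lower and *PYGB* was higher. A PR binding site lay within 10 kb of 11 genes, inside 6, and within 50 kb of 6 with scores of at least 100. *LDHA* was also lost at 2-fold, and *PDK4* with an FPKM minimum of 5 or of 1 in both conditions. *PFKFB3* was called under every alternative run.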
